A study of Mus musculus with 6 samples.

Results

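The report concerns 8 mouse genes whose products remove or prevent R-loops, chosen by symbol as factors of RNA:DNA hybrid removal. All 8 were found among the 54532 genes of the table, and all 8 passed the filter on low counts that left 13444 genes to test. The cells were 32D, an established myeloblast-like mouse line kept in interleukin-3, and mRNA was sequenced. All of them had been transduced with the MSCV-IRES-GFP retrovirus holding a human U2AF1 insert, whose product recognises 3' splice sites. In the S34F group (3 libraries) the construct carried the S34F substitution found in myeloid malignancies, and in the WT group (3 libraries) it was the wild-type protein. The mouse U2af1 gene stayed in place in both groups, the cells were a single line in culture, and no untransduced cells were analysed here.

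An R-loop forms when a nascent RNA pairs again with its DNA template and leaves the other DNA strand unpaired. Cells prevent this by packaging and splicing RNA quickly and by relaxing the DNA behind the polymerase, and they undo it by unwinding the hybrid with helicases or by cutting its RNA with RNase H enzymes. Hybrids that persist can stall replication forks, and mutant splicing factors, U2AF1 S34F among them, have been tied to R-loops in other cell systems. Gene counts show the level of the messenger RNAs of these factors, not R-loops, proteins or splicing.

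No factor passed the test between S34F and WT cells: edgeR called 0 of the 8 (Benjamini-Hochberg adjusted p under 0.05 over 13444 genes), against 2.18% of all genes tested. Members called were also 0 by DESeq2 (9.04% of all genes), by limma-voom (2.01%), with a replicate block (10.5%) and with the GC trend removed (1.21%). Of all genes, 1.58% were called higher in S34F cells and 0.595% lower. Rnaseh1 and Rnaseh2a, which encode the catalytic subunits of RNase H1 and RNase H2, had all 3 S34F libraries above all 3 WT libraries, at about 1.26-fold and 1.27-fold the WT level, and were the 2 genes with an unadjusted p under 0.05. Over all genes, 14.0% had S34F above WT in this way and 22.0% had an unadjusted p under 0.05 (11.9% higher in S34F cells, 10.1% lower). For an unadjusted p in either direction, 2 in 8 is near the share in the whole table. It is above the shares of genes higher in S34F cells, a difference that rests on 8 genes and was not tested. The other 6 factors overlapped between the groups. The median log2 fold change of the 8 was 0.11, with 6 positive and 2 negative, against 0.001 over all genes, and 0.17 against 0.003 with the trend with GC content removed.

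Totals lay between 16509899 and 19129250 counts per library, and 1 count equalled between 0.052 and 0.0608 CPM, the count scaled to library size with TMM factors. Between WT replicates 2 and 3 the biological coefficient of variation was 3.16%, against 16.5% to 29.5% for every other pair, so results are also given with the counts of both summed. No label says that the libraries of a group came from separate cultures, and the spread behind each p-value may be technical in part. The row of the mouse gene U2af1 shows neither the allele nor the share of reads from the human insert, so the level of the construct was not measured. U2af1 had 91.9, 57.3 and 91.7 CPM in the S34F libraries and 97.9, 58.6 and 56.9 CPM in the WT libraries. It averaged 80.3 ± 19.9 CPM in S34F and 71.1 ± 23.2 CPM in WT cells (SD, n = 3 each, edgeR adjusted p = 0.721). Of the defining markers of myeloblast-like cells, Ctsg, Spi1, Ptprc, Csf2rb and Il3ra were present at 62.8 CPM or more in every library, while Kit, Cd34 and Elane stayed at or below 0.487 CPM. Myb and Csf2rb2 were at 186.3 CPM or more, and Prtn3 lay between 22.28 and 51.7 CPM. Mpo lay between 2.986 and 15.81 CPM and Ms4a3 between 0.0597 and 4.683 CPM, with these extremes in S34F libraries. Summed levels overlapped between the groups for the markers of mature neutrophils (1.73 to 19 CPM in S34F, 3.95 to 6.69 CPM in WT), mast cells and basophils (4.48 to 8.41 CPM in S34F, 1.95 to 6.07 CPM in WT) and stroma (5.25 to 20.7 CPM in S34F, 8.82 to 14.2 CPM in WT). The 13 myeloblast markers summed to 2386 to 2955 CPM in S34F and 2110 to 2433 CPM in WT libraries, and edgeR called 1 of the 10 tested, Spi1, higher (adjusted p = 0.0491). The summed level of 6 lymphocyte markers was 0.26 to 0.564 CPM in S34F and 0.118 to 0.426 CPM in WT libraries. The summed level of 8 macrophage markers was 260 to 350 CPM in S34F and 229 to 243 CPM in WT libraries, where C1qa and C1qb were at 0 counts in all 6. Most of the macrophage sum was Adgre1, whose groups overlapped (222.6 to 281.7 CPM in S34F, 198.4 to 230.1 CPM in WT). Csf1r overlapped too, while Cd68 did not (32.01 to 32.44 CPM in S34F, 7.461 to 19.95 CPM in WT). The summed level of 7 erythroid and megakaryocyte markers was 748 to 874 CPM in S34F and 585 to 616 CPM in WT libraries. Nearly all of it was Itga2b (711.6 to 830 CPM in S34F, 559 to 606 CPM in WT) and Pf4, while Gata1, Klf1, Hbb-bs, Hba-a1 and Epor stayed at or below 1.3 CPM. Like Rnaseh1 and Rnaseh2a, these last sums, macrophage and megakaryocyte, were higher in every S34F library than in any WT library. So were 3 of the 10 tested myeloblast markers, Ctsg, Spi1 and Il3ra (14.0% of all genes), while the others overlapped. The part of these markers in the result for Rnaseh1 and Rnaseh2a was not tested.

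**Figure D1:**
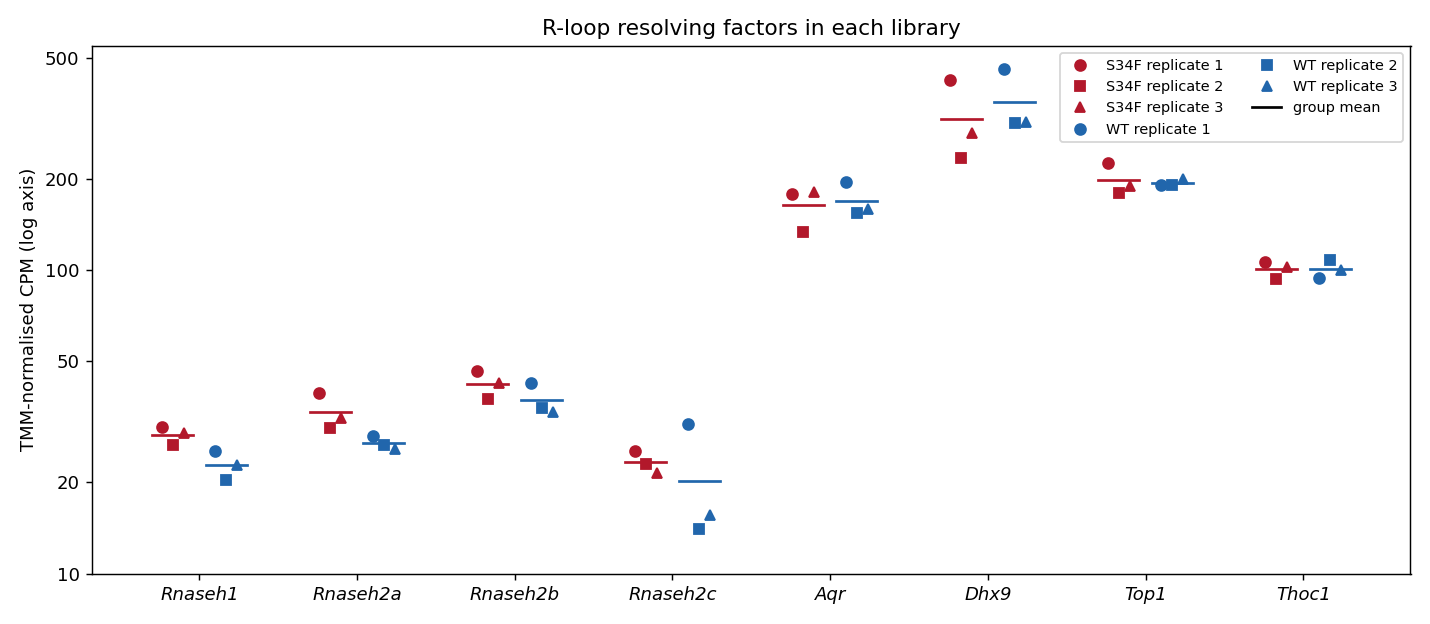
TMM-normalised CPM of the 8 genes on a log axis, with 1 point per library, S34F in red left of WT in blue and a bar at each group mean. Rnaseh1 and Rnaseh2a are the 2 genes in which the red and blue points do not overlap, and WT replicate 1 stands above the other WT libraries for Rnaseh2c and Dhx9.

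RNase H1 is the single-subunit enzyme that cuts the RNA strand of longer hybrids, in the nucleus and, in another form, in mitochondria. Rnaseh1 (ENSMUSG00000020630) lies on chromosome 12, 28649602 to 28659589, plus strand, mm10. In replicate order, the S34F libraries held 30.4, 26.6 and 29.1 CPM and the WT libraries held 25.3, 20.4 and 22.7 CPM. The lowest S34F library lay just above the highest WT library. The log2 fold change was 0.33 ± 0.14 (SE, n = 3 per group, 95% interval 0.02 to 0.64, edgeR adjusted p = 0.203). With WT replicates 2 and 3 summed it was 0.29 (adjusted p = 0.510), and with each library's trend with GC content removed it was 0.37 (adjusted p = 0.205). The change was positive with each of the 6 libraries left out, between 0.25 and 0.42, and did not pass in any of these fits.

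RNase H2 is a complex of 3 subunits, RNASEH2A, RNASEH2B and RNASEH2C, that cuts hybrids and also removes single ribonucleotides built into DNA. RNASEH2A holds the active site and the other subunits form a platform that the complex needs, and mutations in any of the 3 genes cause Aicardi-Goutieres syndrome in humans. Rnaseh2a (ENSMUSG00000052926) lies on chromosome 8, 84956610 to 84969767, minus strand. In replicate order, the S34F libraries held 39.3, 30.3 and 32.4 CPM and the WT libraries held 28.3, 26.5 and 25.7 CPM. All S34F libraries were above the WT libraries, and S34F replicate 1 was the highest of the 6. The log2 fold change was 0.34 ± 0.14 (SE, n = 3 per group, 95% interval 0.03 to 0.66, edgeR adjusted p = 0.198). Without S34F replicate 1 it was 0.22 (adjusted p = 0.471), more than 1.5 times smaller, and with the GC trend removed it was 0.23 (adjusted p = 0.373).

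Rnaseh2b (ENSMUSG00000021932) lies on chromosome 14, 62292589 to 62372992, plus strand. In replicate order, the S34F libraries held 46.6, 37.7 and 42.3 CPM and the WT libraries held 42.5, 35.1 and 34.2 CPM. The groups overlapped because WT replicate 1 was above 2 of the S34F libraries. Its log2 fold change was 0.18 ± 0.14 (SE, n = 3 per group, 95% interval -0.13 to 0.49, edgeR adjusted p = 0.475). It was 0.09 without S34F replicate 1 (adjusted p = 0.801) and 0.29 without WT replicate 1 (adjusted p = 0.183).

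Rnaseh2c (ENSMUSG00000024925, chromosome 19, 5601873 to 5607019, plus strand) was the subunit gene that depended most on 1 library. The S34F libraries held 25.4, 23.0 and 21.4 CPM and the WT libraries held 31.0, 14.1 and 15.6 CPM, in replicate order. WT replicate 1 was the highest of all 6 libraries and WT replicates 2 and 3 the lowest. The log2 fold change was 0.20 ± 0.28 (SE, n = 3 per group, 95% interval -0.43 to 0.84, edgeR adjusted p = 0.714). Without WT replicate 1 it was 0.65 (adjusted p = 0.0411) and passed, in a fit that called 8.51% of all genes and in which WT is the closest pair of libraries. With that pair summed the log2 fold change was 0.03 (adjusted p = 0.979). In all 6 libraries with the GC trend removed it was 0.06 (adjusted p = 0.929). Exons of Kat5 on the opposite strand cover 24.8% of the exon bases of Rnaseh2c, and the strand setting of the counting is not given, so reads there cannot be told apart. Kat5 held 48.1, 48.2 and 52.7 CPM in the S34F libraries and 51.8, 51.2 and 50.4 CPM in the WT libraries. For Rnaseh2a, Prdx2 on the opposite strand covers 5.0% of the exon bases and averaged 47.4 CPM, and Gm49661 on the same strand covers 9.7% and was at 0 counts in every library.

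**Figure D2:**
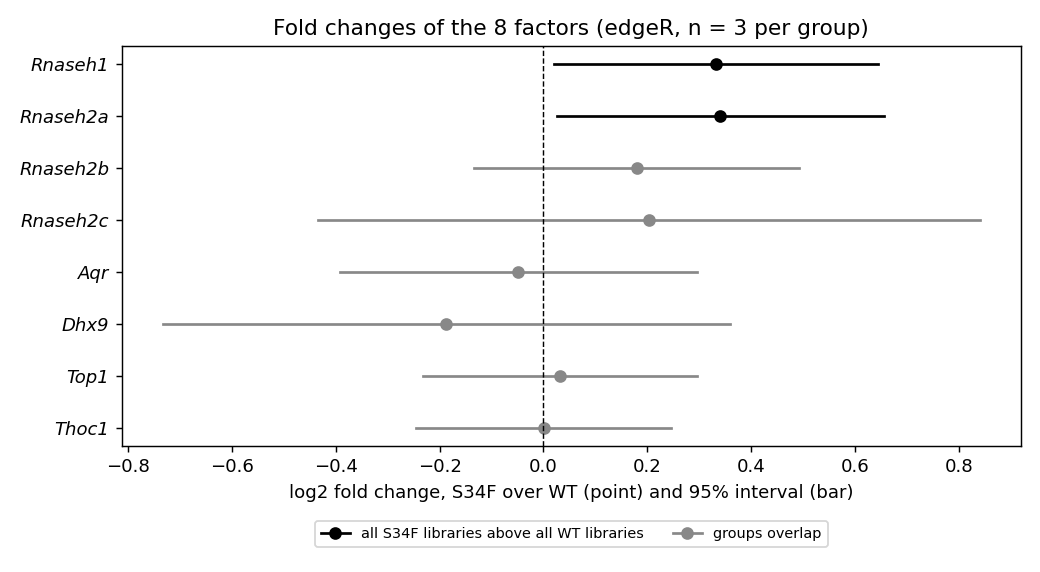
Log2 fold change of S34F over WT for the 8 genes (points) with the 95% interval from the edgeR fit (bars), black where all S34F libraries lie above all WT libraries. The intervals of Rnaseh1 and Rnaseh2a begin just above 0, at 0.02 and 0.03, and none of the 8 genes passed after adjustment over all genes.

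Windows around the RefSeq starts of Rnaseh2a and Rnaseh2c are shown because both products belong to RNase H2, while Rnaseh2a separated the groups and Rnaseh2c varied most among WT libraries. The sequences are RefSeq promoter windows on GRCm38.p6, from 250 bases before to 30 after the start in RefSeq, and 5 of the 8 genes had an entry (Rnaseh2a, Rnaseh2c, Aqr, Dhx9 and Top1). Rnaseh2a lies at chr8:84966047-84966326 on the minus strand and Rnaseh2c at chr19:5601623-5601902 on the plus strand. The Rnaseh2a window lies inside the GENCODE locus given above, whose outermost start is farther upstream than the RefSeq start. Capitals mark matches, on either strand, to the ZNF143-type motif (ACTAC, any 2 bases, TTCCC) and to TTTNGCG, an E2F-type motif.
Rnaseh2a: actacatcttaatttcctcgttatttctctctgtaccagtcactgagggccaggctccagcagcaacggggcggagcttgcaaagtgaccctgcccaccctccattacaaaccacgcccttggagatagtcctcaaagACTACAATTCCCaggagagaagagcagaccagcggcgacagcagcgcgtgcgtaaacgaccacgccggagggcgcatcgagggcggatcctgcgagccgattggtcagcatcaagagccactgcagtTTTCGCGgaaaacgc
Rnaseh2c: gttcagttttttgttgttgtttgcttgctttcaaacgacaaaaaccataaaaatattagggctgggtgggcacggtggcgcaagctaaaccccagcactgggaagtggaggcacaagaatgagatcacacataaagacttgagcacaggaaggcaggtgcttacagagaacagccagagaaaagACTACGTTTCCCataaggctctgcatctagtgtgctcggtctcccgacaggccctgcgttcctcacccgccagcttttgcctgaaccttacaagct
These motifs were chosen after the sequences had been read. The ZNF143-type motif, found as ACTACAATTCCC in Rnaseh2a and ACTACGTTTCCC in Rnaseh2c, begins 112 bases before the start of Rnaseh2a and 66 bases before that of Rnaseh2c, and 1.02% of the 32851 promoter windows in the table hold it. The E2F-type motif lies at bases 16 to 22 after the start of Rnaseh2a, and 3.94% of the windows hold it. A match is a run of letters and not a measured binding site.

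Ratios within a library do not depend on the scaling between libraries. The log2 ratio of Rnaseh2a to Rnaseh2b counts was -0.25, -0.32 and -0.38 for the S34F libraries against -0.58, -0.41 and -0.41 for the WT libraries. The S34F libraries were all above the WT libraries, with a difference of 0.15 between the means (exact permutation p = 0.10, two-sided, the smallest that 3 against 3 allows; 0.40 adjusted over 4 ratios). Without WT replicate 1 the difference was 0.093. Between the catalytic genes, the log2 ratio of Rnaseh2a to Rnaseh1 averaged 0.24 ± 0.12 in S34F and 0.24 ± 0.12 in WT libraries (SD, n = 3 each, exact permutation p = 0.80). Both ratios to Rnaseh2c were lowest in WT replicate 1. Rnaseh2a over Rnaseh2c was 0.63, 0.39 and 0.60 for the S34F libraries against -0.13, 0.91 and 0.72 for the WT libraries on the log2 scale (exact permutation p = 1.0). Rnaseh2b over Rnaseh2c averaged 0.86 ± 0.14 in S34F and 0.97 ± 0.45 in WT libraries (SD, n = 3 each, exact permutation p = 0.80).

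**Figure D3:**
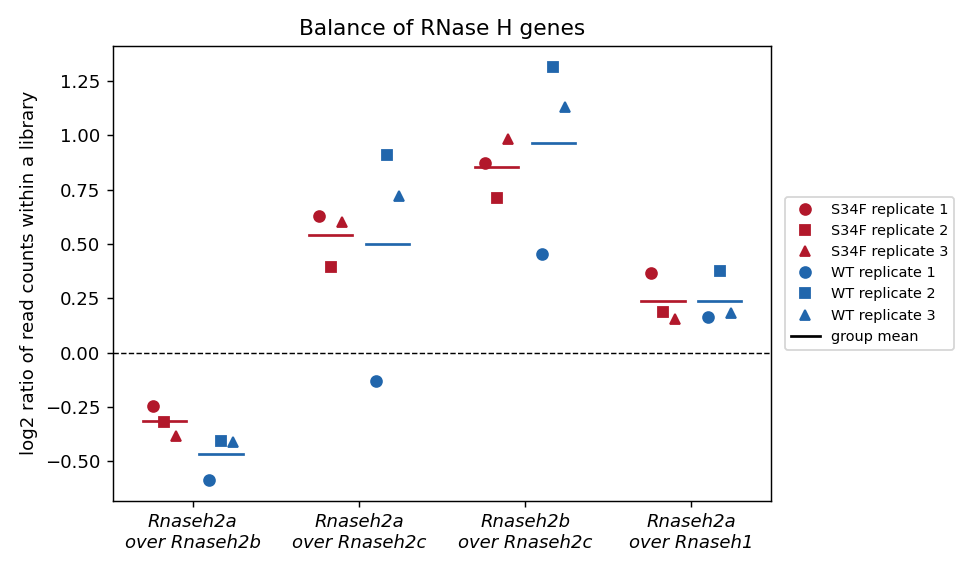
Log2 ratio of read counts of 2 RNase H genes within each library, with 1 point per library, S34F in red left of WT in blue and a bar at each group mean. Rnaseh2a over Rnaseh2b is the ratio in which the groups do not overlap, and WT replicate 1 lies apart in both ratios to Rnaseh2c. The trend with GC content was not removed.

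AQR, or Aquarius, is a helicase of the spliceosome that binds introns, and DHX9 is an RNA helicase that unwinds hybrids and structured RNA. Aqr (ENSMUSG00000040383) lies on chromosome 2, 114101170 to 114187024, minus strand. In replicate order, the S34F libraries held 177, 133 and 181 CPM and the WT libraries held 194, 154 and 159 CPM. The groups overlapped, with S34F replicate 2 the lowest library and WT replicate 1 the highest. The log2 fold change was -0.05 ± 0.15 (SE, n = 3 per group, 95% interval -0.39 to 0.30, edgeR adjusted p = 0.883).

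Dhx9 (ENSMUSG00000042699, chromosome 1, 153455758 to 153487660, minus strand) had the highest level of the 8 per kilobase of exon. The S34F libraries held 423, 233 and 283 CPM and the WT libraries held 459, 304 and 306 CPM, in replicate order. Replicate 1 was the highest library of each group. The log2 fold change was -0.19 ± 0.24 (SE, n = 3 per group, 95% interval -0.73 to 0.36, edgeR adjusted p = 0.689). It was -0.47 without S34F replicate 1 (adjusted p = 0.341) and 0.05 without WT replicate 1 (adjusted p = 0.920), so its sign turned without that WT library.

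Windows around the RefSeq starts of Dhx9 (chr1:153487631-153487910, minus strand) and Aqr (chr2:114175310-114175589, minus strand) are shown because WT replicate 1 was the highest library for both helicase genes. The Aqr window lies inside its GENCODE locus, which begins farther upstream. Capitals mark CCGGAAGT, an ETS-type motif, on either strand (ACTTCCGG in Aqr), and TTTNGCG.
Dhx9: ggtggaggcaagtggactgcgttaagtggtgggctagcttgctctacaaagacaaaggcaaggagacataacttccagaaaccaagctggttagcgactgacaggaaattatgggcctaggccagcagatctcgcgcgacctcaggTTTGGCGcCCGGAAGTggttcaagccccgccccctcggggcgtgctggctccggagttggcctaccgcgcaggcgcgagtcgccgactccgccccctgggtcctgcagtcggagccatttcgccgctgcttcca
Aqr: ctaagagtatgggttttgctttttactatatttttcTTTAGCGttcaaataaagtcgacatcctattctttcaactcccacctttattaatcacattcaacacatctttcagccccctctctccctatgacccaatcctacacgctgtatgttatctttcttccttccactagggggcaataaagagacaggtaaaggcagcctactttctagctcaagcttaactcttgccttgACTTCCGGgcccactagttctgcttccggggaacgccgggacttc
The ETS-type motif begins 96 bases before the start of Dhx9 and 15 bases before that of Aqr, and 3.72% of all windows hold it. In Dhx9 the E2F-type match lies just upstream of the ETS-type match without overlap. The window of Top1 holds none of the 3 motifs. WT replicate 1 was also the highest library for Rnaseh2c, whose window holds neither the ETS-type nor the E2F-type motif.

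TOP1 nicks DNA to release the supercoils that favour R-loops, and THOC1 is a subunit of the THO complex, which packages nascent RNA for export. Top1 (ENSMUSG00000070544) lies on chromosome 2, 160645888 to 160722764, plus strand. In replicate order, the S34F libraries held 224, 179 and 189 CPM and the WT libraries held 190.1, 190.4 and 199 CPM. The WT libraries lay within the range of the S34F libraries. Its log2 fold change was 0.03 ± 0.12 (SE, n = 3 per group, 95% interval -0.23 to 0.30, edgeR adjusted p = 0.899).

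Thoc1 (ENSMUSG00000024287) lies on chromosome 18, 9957906 to 9995489, plus strand. In replicate order, the S34F libraries held 106, 93.1 and 102 CPM and the WT libraries held 94.0, 108 and 100.2 CPM. Its group means were 100.6 ± 6.78 CPM in S34F and 100.6 ± 6.78 CPM in WT cells (SD, n = 3 each). The 95% interval of its log2 fold change, -0.24 to 0.25, leaves room for changes of up to about 1.19-fold in either direction (edgeR adjusted p = 0.999). After removal of the GC trend Top1 and Thoc1 had log2 fold changes of 0.17 and 0.18, which did not pass (adjusted p = 0.486 and 0.385). Exons of Usp14 on the opposite strand cover 24.3% of the exon bases of Thoc1, and Usp14 averaged 209.9 CPM.

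**Figure D4:**
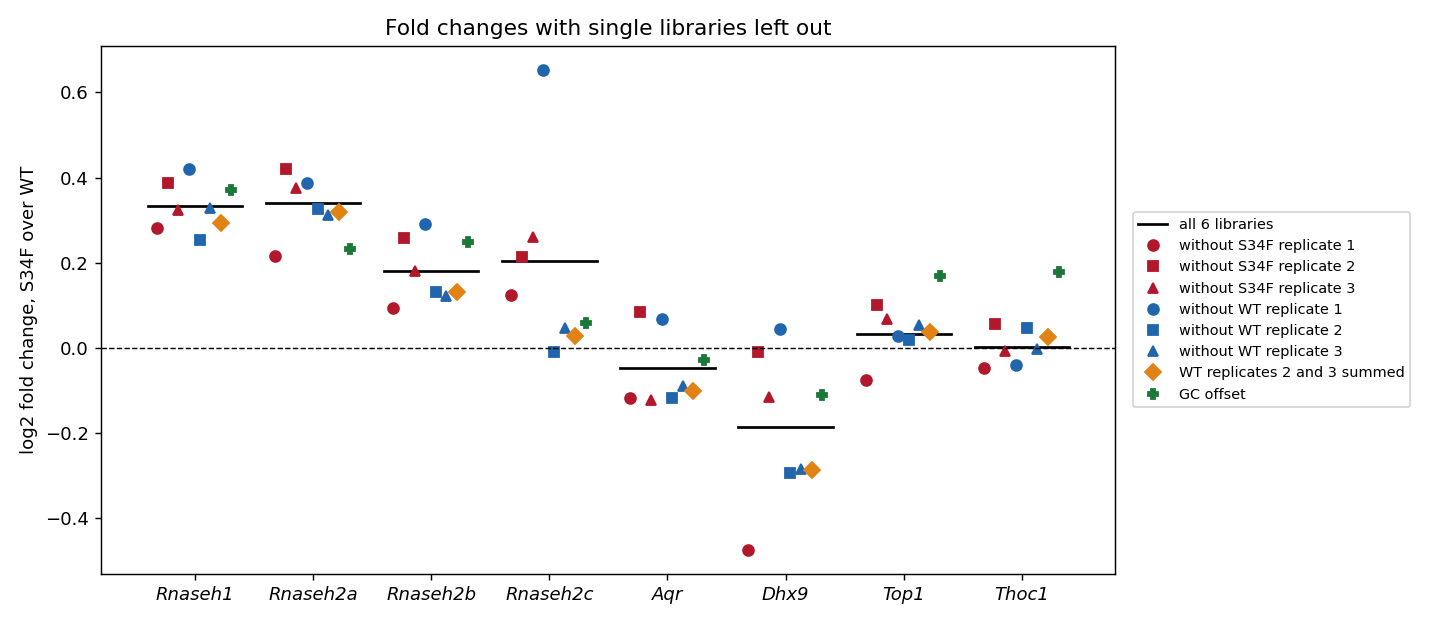
Log2 fold change of S34F over WT for the 8 genes in the fit of all 6 libraries (bar), without each library in turn, with WT replicates 2 and 3 summed and with the GC trend removed (points). Rnaseh1, Rnaseh2a and Rnaseh2b stay above 0 throughout, while Rnaseh2c ranges from -0.01 to 0.65 and Dhx9 from -0.47 to 0.05.

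Levels can be compared between genes only per length, here as CPM per kilobase of merged exons. Dhx9 was highest, at 32.6 ± 10.2 in S34F and 37.1 ± 9.28 in WT cells, followed by Top1 at 18.9 ± 2.27 in S34F and 18.5 ± 0.48 in WT cells (SD, n = 3 each). Aqr came next at 13.9 ± 2.25 in S34F and 14.3 ± 1.86 in WT cells. Rnaseh2c (13.6 ± 1.18 in S34F, 11.8 ± 5.46 in WT) and Thoc1 (11.3 ± 0.759 in both groups) followed. Rnaseh1 had 11.1 ± 0.757 in S34F and 8.82 ± 0.952 in WT cells, and Rnaseh2a 9.69 ± 1.34 in S34F and 7.65 ± 0.384 in WT cells. Rnaseh2b was lowest, at 6.76 ± 0.709 in S34F and 5.97 ± 0.734 in WT cells. The order of the means was the same in both groups. In S34F cells the library ranges of Aqr and Rnaseh2c overlapped, as did those of Thoc1 and Rnaseh1 and of Rnaseh1 and Rnaseh2a. In WT cells the overlapping neighbours were Aqr and Rnaseh2c, Rnaseh2c and Thoc1, and Rnaseh1 and Rnaseh2a. With the longest transcript as the length Thoc1 came before Rnaseh2c, and the other places did not change.

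A further 10 lists were written with earlier results of these data known. They cover genes related to R-loops, and 15 general replication and cycling genes are included. Together they held 98 tested genes. Of these, edgeR called 0 (2.18% of all genes) and limma-voom 0 (2.01%), and DESeq2 called 4, Thoc6, Nxt1, Wrn and Top1mt (9.04% of all genes). An unadjusted p under 0.05 was found for 14, against 22.0% of all genes. Without WT replicate 1 edgeR called 8, against 8.51% of all genes in that fit, among them Pcna, Alyref, Sem1, Ppie, Wrn, Nxt1 and Thoc6. Over the 98 the log2 fold changes had their median at -0.01, and 22 of the 98 had groups that do not overlap, against 27.1% of all genes.

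The packaging and export partners of THOC1 in the TREX list had a median log2 fold change of 0.08 over 13 genes, 7 positive and 6 negative, and of 0.03 with the GC trend removed. Thoc6, another THO subunit, averaged 30.7 ± 6.19 CPM in S34F and 18.5 ± 3.33 CPM in WT cells, with a log2 fold change of 0.73 ± 0.19 that edgeR did not call (SD and SE, n = 3 each, adjusted p = 0.0852). DESeq2 called it (adjusted p = 0.0125). In TREX-2, which links transcription to the nuclear pore (6 genes, median 0.00; 0.08 with the GC trend removed), Cetn2 had a log2 fold change of -0.47 (edgeR adjusted p = 0.153). In the intron-binding complex of AQR (4 genes, median -0.01; -0.08 with the GC trend removed) Ppie, a prolyl isomerase, had 0.44 (edgeR adjusted p = 0.244). Termination factors (8 genes, median -0.10; -0.015 with the GC trend removed) had 1 positive and 7 negative values, and Ttf2 had -0.22 (edgeR adjusted p = 0.322).

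Among 16 other helicases tied to hybrids the median log2 fold change was -0.07, with 7 positive and 9 negative. Wrn, the RecQ helicase of Werner syndrome, averaged 31.3 ± 4.22 CPM in S34F and 46.8 ± 9.13 CPM in WT cells, a log2 fold change of -0.58 ± 0.17 that edgeR did not call (SD and SE, n = 3 each, adjusted p = 0.110). DESeq2 called it (adjusted p = 0.0343). Log2 fold change and GC content had a Spearman's rho of 0.316 over 13433 genes, a description since genes are not replicates. The helicase list had a median GC content of 45.8% against 49.1% over all genes, and its median log2 fold change with the trend removed was -0.04.

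Of 10 genes of other topoisomerases and their partners, 8 had negative values (median -0.18; -0.11 with the GC trend removed). Top1mt, the mitochondrial paralogue of Top1, went the other way, at 19.4 ± 5.02 CPM in S34F and 11.4 ± 1.249 CPM in WT cells, a log2 fold change of 0.76 ± 0.22 that edgeR did not call (SD and SE, n = 3 each, adjusted p = 0.102) and DESeq2 did (adjusted p = 0.0223). Without S34F replicate 2 it passed in edgeR (log2 fold change 0.97, adjusted p = 0.0398). Repair and other factors that limit R-loops (13 genes, with Srsf1, Bub3, Supt16 and Ssrp1 beside the repair genes) had a median of -0.11, and 0.01 with the GC trend removed. Fanci had the smallest p among them, with a log2 fold change of -0.19 (edgeR adjusted p = 0.458). Nucleases that can turn R-loops into breaks, with related repair factors such as Ercc6 (7 genes), had a median of 0.16, and 0.099 with the GC trend removed. Ercc1, the partner of XPF, had a log2 fold change of 0.44 (edgeR adjusted p = 0.160), and 0.28 with the GC trend removed (adjusted p = 0.368).

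The other Aicardi-Goutieres genes and the cGAS-STING route, which senses DNA in the cytosol, gave 6 tested genes with a median log2 fold change of 0.13, and 0.06 with the GC trend removed. Samhd1, a dNTP hydrolase, had 0.20 (edgeR adjusted p = 0.373). Trex1 and Ifih1 were at 0 counts in all 6 libraries, where 3 counts, the limit a count of 0 allows for counting error, equal 0.156 to 0.182 CPM. Every exon base of Trex1 lies within exons of Atrip on the same strand, so reads of these genes cannot be told apart. The 15 replication and cycling genes had a median of 0.02, and Mcm6, a subunit of the replicative helicase, had -0.41 (edgeR adjusted p = 0.152).

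**Figure D5:**
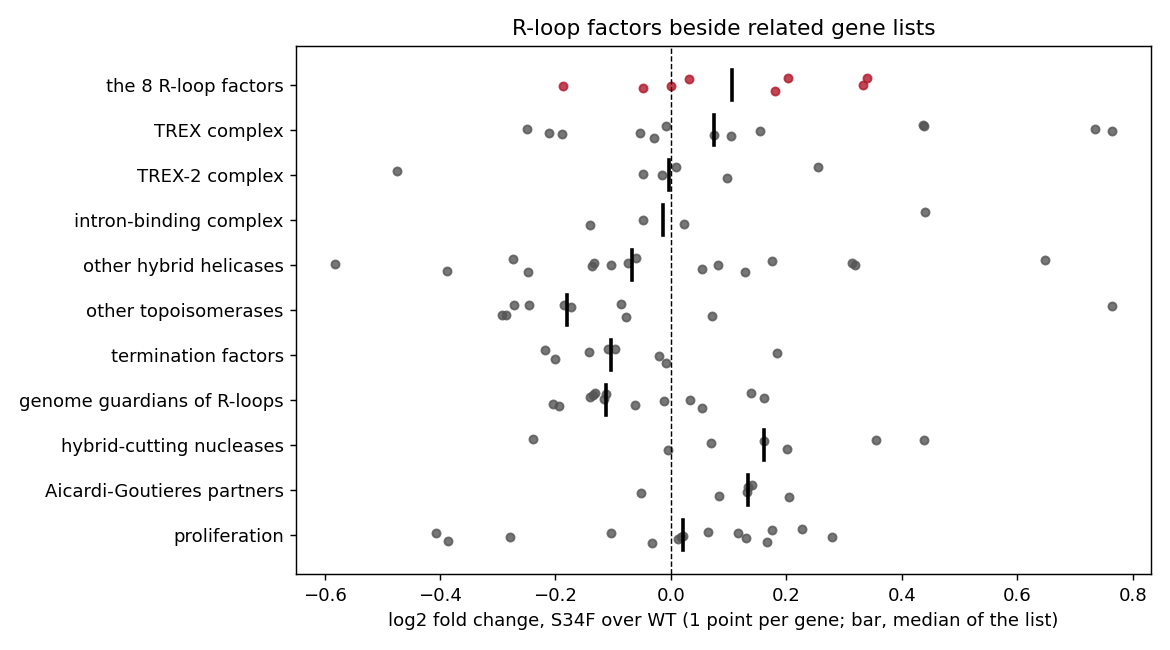
Log2 fold change of S34F over WT for each tested gene of the 8 R-loop factors (red) and of 10 further lists (grey), cycling genes included, with a bar at each median. The medians lie between -0.18 for other topoisomerases and 0.16 for nucleases with related repair factors, and edgeR called no gene in any of these rows.

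Other genes followed the members across the 6 libraries closely, given as Pearson's r of log2(CPM + 1) over 6 libraries of which WT replicates 2 and 3 are nearly alike. The closest to Rnaseh1 were Pcyt2 (r = 0.999) and D8Ertd738e (0.996), and to Rnaseh2a they were Cops6, a subunit of the COP9 signalosome (0.993), and Ptpa (0.992). For Rnaseh2b they were Flna, filamin A (0.996), and Psmb10, a subunit of the immunoproteasome (0.995). For Rnaseh2c they were Siah2, a ubiquitin ligase (0.998), and Gtpbp6 (0.994). Aqr was closest to Polrmt, the mitochondrial RNA polymerase (0.992), and Knop1 (0.990), and Dhx9 to Kyat3 (0.995) and the chaperone gene Hsp90ab1 (0.994). Top1 and Thoc1 had less close neighbours, Mir186 (0.980) and Tmem5 (0.965) for Top1 and Ift20 (0.969) and Mrrf (0.953) for Thoc1. Mir186 lay between 2.03 and 3.05 CPM, near the minimum mean of 2 CPM for genes compared. An r over 0.95 was found for 203 genes with Rnaseh1, 127 with Rnaseh2a and 273 with Rnaseh2b, and for 3 genes with Thoc1, of 9798 compared. These values describe the profiles and carry no test.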

How the data were processed

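The labels' protocols name a directional library kit and mRNA libraries. The table the authors deposited holds raw whole-number counts, with a row per Ensembl ID, and its columns were matched to samples by genotype and number. HISAT2, featureCounts and mm10 are listed, per the submitters' processing notes. Neither tool versions nor the strand option, annotation and handling of shared reads were given, so reads of overlapping genes may be lost or shared.

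Genes passing filterByExpr were scaled with TMM and fitted in edgeR 4.0.16 (R 4.3.3) by robust quasi-likelihood, with genotype as the sole term and 4 residual degrees of freedom. Tests were two-sided, and Benjamini-Hochberg adjustment at 0.05 ran over all genes tested. Each SE is the fold change on the log2 scale over the square root of its F statistic, and 95% intervals, unadjusted, use the fit's total degrees of freedom. Gene models were those of GENCODE M21 (mm10), where 54495 of 54532 IDs and 99.987% of counts were found. Ratios were compared by exact permutation in SciPy 1.17.1.

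The alternatives were other size factors and filters, DESeq2 1.42.0, limma-voom (limma 3.58.1), a replicate block, a loess GC offset (span 0.5), each library left out, WT replicates 2 and 3 summed, and, chosen after seeing the data, another gene length. The procedure was tested on simulated counts. These were drawn independently for each library, without the likeness of WT replicates 2 and 3, so they do not give error rates for the real libraries. Members and lists were chosen with earlier results of these data known. All 161 entries of the 18 lists were matched. Named genes were U2af1, the members, from each list up to 4 called genes or else the 1 with the smallest p, and for each member the 2 genes with the highest r among genes averaging 2 CPM or more, leaving out symbols of predicted genes and clones. The values of 1 listed gene are not reported here. Plots used matplotlib 3.10.9 (Python 3.11.15).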

Additional observations from a re-analysis of the deposited data

How the results depend on the processing

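No alternative called any of the 8 factors except the fit without WT replicate 1, which called Rnaseh2c, so the count ranged from 0 to 1 with single libraries left out. Leaving out 1 library moved the log2 fold change of Rnaseh2b between 0.094 and 0.291, of Rnaseh2c between -0.010 and 0.653, of Aqr between -0.123 and 0.084, of Dhx9 between -0.475 and 0.045, of Top1 between -0.077 and 0.1 and of Thoc1 between -0.049 and 0.056. Signs near 0 also turned for Thoc1 with upper-quartile factors (-0.031), library totals alone (-0.035) and the 1 CPM filter (-0.0076), and for Top1 with library totals alone (-0.0041). Rnaseh1, Rnaseh2a and Rnaseh2b stayed positive in all 16 alternatives. The cause of these shifts was not tested.

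The count of changed genes over the whole table was 763 with no filter on low counts, 1216 by DESeq2, 1418 with the replicate block, 163 with the GC trend removed, 20 with WT replicates 2 and 3 summed and between 19 and 1177 with 1 library left out, against 293 with all libraries (omitting S34F replicate 1 gave 20, S34F replicate 3 gave 50, WT replicate 1 gave 1177, WT replicate 2 gave 19 and WT replicate 3 gave 22). The 98 genes of the 10 lists, cycling genes included, gave 0 calls. They gave 3 with no filter, 4 by DESeq2, 10 with the replicate block and between 0 and 8 with 1 library left out. Libraries of the groups share replicate numbers, and whether the numbers pair them was not decided. Deviations of same-numbered libraries correlated at 0.332, 0.159 and 0.0719. S34F replicate 1 had -0.259 and -0.243 with WT replicates 2 and 3. S34F replicate 3 had 0.0801 with WT replicate 2, but WT replicates 2 and 3 are too alike for this to separate them. No member passed with the block. The block with the GC offset was not run because the numbers were not taken as pairs.

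Ratio differences ranged with 1 library left out from 0.093 to 0.186 for Rnaseh2a over Rnaseh2b, from -0.274 to 0.246 for Rnaseh2a over Rnaseh2c, from -0.366 to 0.064 for Rnaseh2b over Rnaseh2c and from -0.069 to 0.065 for Rnaseh2a over Rnaseh1. With WT replicates 2 and 3 summed the last pair were 0.021 and 0.019.

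Among neighbours in profile, signs near 0 turned for Siah2 (-0.0061) and Gtpbp6 (-0.047) with the GC trend removed, for Mrrf with library totals alone (-0.005), and for Ift20 with no filter, the GC trend removed and WT replicates 2 and 3 summed (0.0004, 0.0067 and 0.025). With 1 library left out the ranges were -0.099 to 0.113 for Polrmt, -0.178 to 0.113 for Knop1, -0.412 to 0.019 for Kyat3, -0.359 to 0.053 for Hsp90ab1, -0.119 to 0.203 for Mir186, -0.182 to 0.180 for Tmem5, -0.085 to 0.098 for Ift20 and -0.067 to 0.148 for Mrrf.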
